A study of Mus musculus with 15 samples.

Results

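CD95L-T4 is a trimerized construct of the ligand of CD95, and its effect on RNA bound to polysomes was compared here between 3 CD95L-T4 arrays and 4 control arrays of polysomal RNA, 7 of the 15 Affymetrix mouse arrays of the series. The arrays were chosen by their titles alone, because the treatment label of the CD95L-T4 samples names only the cells. All cultures were neurospheres of neural stem cells, taken from female mice of 6 weeks of the strain spelled C57/B16 in the labels, and RNA was isolated 48 h after stimulation. Polysomal RNA was extracted with phenol and chloroform in both groups and its molecule is labelled polyA RNA. The other 8 arrays, 4 of CD95L-T4 and 4 of control cultures, hold total RNA, and they enter here only as the source of a common estimate of spread and for values set beside the polysomal ones. Replicates are called biological in the titles, but nothing states that they came from separate animals, so the p-values measure the spread between these cultures. All 22626 probe sets that are not Affymetrix controls were compared, and 12393 genes were each represented by the probe set with the highest mean.

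CD95, also called Fas, is a death receptor that recruits the adaptor FADD and caspase-8, and in neural cells it is also known to signal through Src family kinases and PI3K to Akt and mTOR. mTOR complex 1 promotes translation by phosphorylating 4E-BP proteins, which otherwise block the cap-binding factor eIF4E. Polysomes are mRNAs loaded with several ribosomes, so RNA recovered from them is taken as the part of the transcriptome under translation, and its amount for a gene depends both on how much mRNA there is and on how much of it carries ribosomes.

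The 3 CD95L-T4 arrays did not form a uniform group. Poly-A control transcripts, foreign RNAs added during labelling, averaged 8.18, 9.86 and 8.32 in log2 in CD95L-T4 replicates 1, 2 and 3, against 8.45 to 9.03 in the controls, so that replicate 2 lay above and the others below every control array. The 3' minus 5' signal difference of beta-actin was 0.59, 0.68 and 1.03, against 0.74 to 0.81 in the controls, and that of Gapdh was 0.22 in replicate 3 against -0.05 to 0.09 in the other 6 arrays. Replicate 2 correlated at 0.996 to 0.997 with the control arrays and at 0.994 with either of the other CD95L-T4 arrays, whereas replicates 1 and 3 correlated at 0.996 with each other. The share of genes more than 0.5 in log2 away from the control arrays was 3.16% and 2.51% in replicates 1 and 3 and 0.904% in replicate 2, where each control array, set against the other controls, gave 0.347% to 0.783%. Every result below is therefore given with all arrays and, where it bears on it, without CD95L-T4 replicate 2. With the poly-A level as a covariate limma called 0 probe sets, with a lowest adjusted p of 0.175, and the part of the 3' to 5' differences in the results was not tested.

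With all arrays, limma called 0 of 22626 probe sets (0%) at an adjusted p under 0.05, with a lowest adjusted p of 0.234. At an unadjusted p under 0.05 there were 2184 probe sets (9.65%), 1022 higher (4.52%) and 1162 lower (5.14%) with CD95L-T4. Counted by gene, these were 1176 of 12393 genes (9.49%), 508 higher (4.1%) and 668 lower (5.39%). All 3 CD95L-T4 arrays lay above all 4 controls for 314 genes (2.53%) and below them for 365 (2.95%). The median fold change over all genes was 0.0025 in log2.

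Without replicate 2, limma called 1386 probe sets (6.13%), 717 higher (3.17%) and 669 lower (2.96%). They belonged to 790 genes (6.37%), 382 higher (3.08%) and 408 lower (3.29%), and the median over all genes was then -0.005. That comparison sets 2 CD95L-T4 arrays against 4 controls and borrows its spread from the total RNA arrays: a fit of the 6 polysomal arrays alone called 0, and weighting the arrays by their quality left 158. Of the 1386 probe sets, 870 had an unadjusted p under 0.05 with all arrays, where 9.65% of all probe sets did. The fits share every array but replicate 2, so this overlap is given as a description.

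The array left out shows on its own how far these calls extend to it, since it had no share in them. Of the 382 genes called higher, only 85 were above the control mean in replicate 2, and of the 408 called lower, 145 were below it there. The median difference from the control mean was 0.40 in replicates 1 and 3 and -0.09 in replicate 2 for the genes called higher, and -0.38 and 0.03 for the genes called lower. For these genes replicate 2 lay on the controls or slightly to the other side of them. The same control arrays enter both values, so they are given as a description.

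**Figure D1:**
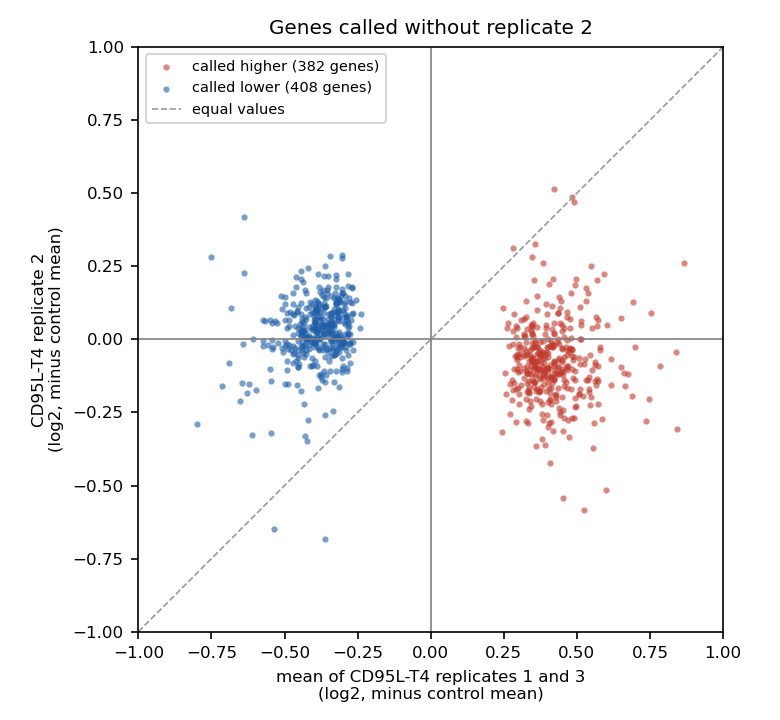
Each point is one of the 790 genes called without replicate 2. The x axis is the mean of CD95L-T4 replicates 1 and 3 and the y axis is CD95L-T4 replicate 2, both as log2 differences from the mean of the 4 control polysomal arrays, with genes called higher in red and genes called lower in blue. Most red points lie under the horizontal zero line, where 85 of 382 are above it, and most blue points lie over it, where 145 of 408 are below it.

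The 20 genes with the smallest p over all arrays, 8 higher and 12 lower, had adjusted p-values of 0.234 to 0.466, and 18 of them were called without replicate 2. That overlap is no separate evidence, because the fits share every array but replicate 2. Gm4802, a predicted gene, read 7.43, 7.31, 7.33 and 7.24 in the controls and 6.89, 6.68 and 6.69 in CD95L-T4 replicates 1 to 3. Arhgap39, which encodes a GTPase-activating protein, read 6.37, 6.46, 6.33 and 6.41 against 6.11, 5.71 and 5.95. For both genes the 3 CD95L-T4 arrays were below every control, and replicate 2 was the lowest of them. The difference was -0.57 ± 0.09 (SE, n = 3 and 4, limma adjusted p = 0.234) for Gm4802 and -0.47 ± 0.10 (adjusted p = 0.431) for Arhgap39, and without replicate 2 it was -0.54 (adjusted p = 0.0115) and -0.36 (adjusted p = 0.0331).

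Among the genes of this group that were higher, Col5a2, a fibrillar collagen chain, read 6.72, 6.86, 6.41 and 6.70 in the controls and 7.32, 7.16 and 6.99 with CD95L-T4. Gpc4, the heparan sulfate proteoglycan glypican 4, read 5.87, 6.03, 5.99 and 6.15 against 6.65, 6.48 and 6.35. Mylk, the myosin light chain kinase, read 7.11, 7.32, 7.22 and 7.08 against 7.67, 7.39 and 7.69. In each case all CD95L-T4 arrays were above the highest control, and for Mylk replicate 2 was the nearest to it. The differences were 0.48 ± 0.10, 0.48 ± 0.12 and 0.40 ± 0.09 (SE, n = 3 and 4), each with a limma adjusted p of 0.431, and without replicate 2 they were 0.48, 0.49 and 0.50 with adjusted p-values of 0.0255, 0.0434 and 0.0092. A second probe set of Col5a2 stood at 0.15 and the 2 others of Mylk at 0.08 and 0.17.

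Plek (pleckstrin), Pot1a, which binds the single-stranded end of telomeres, Lrrc4, a synaptic adhesion protein, Efhd1, a calcium-binding mitochondrial protein, and Hkdc1, a hexokinase family member, made up the other 5 that were higher, at 0.29 to 0.47. Hkdc1 and Trpc2, a cation channel gene that was lower at -0.48, were the pair not called without replicate 2 (adjusted p = 0.0924 and 0.0638). Selenop, the secreted selenium carrier, read 11.82, 11.64, 11.61 and 11.68 in the controls and 11.26, 11.51 and 11.23 with CD95L-T4. Ddit3, which encodes the stress transcription factor CHOP, read 9.29, 9.22, 9.22 and 9.29 against 8.69, 9.15 and 8.84. Both were below every control in the 3 arrays, with replicate 2 the closest to the controls. The differences were -0.35 ± 0.08 for Selenop and -0.36 ± 0.09 for Ddit3 (SE, n = 3 and 4, limma adjusted p = 0.431 and 0.466), and -0.44 and -0.49 without replicate 2 (adjusted p = 0.00925 and 0.0092).

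**Figure D2:**
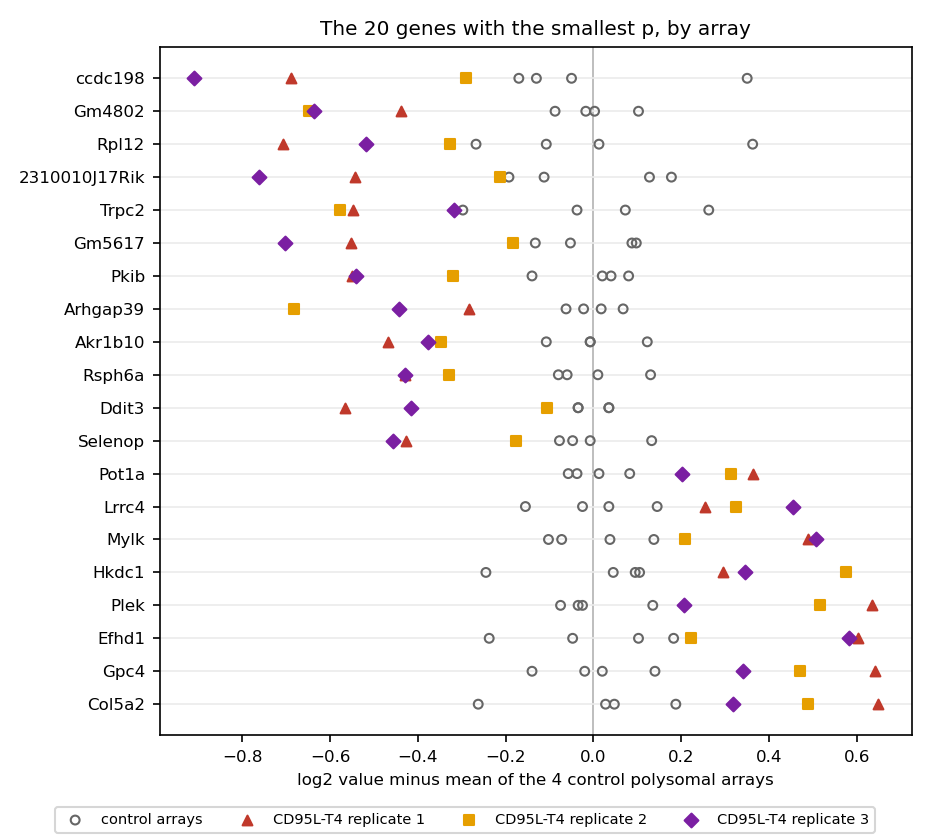
Log2 value minus the mean of the 4 control polysomal arrays (x axis) for the 20 genes with the smallest p, ordered by their difference. Open circles are the 4 control arrays and filled symbols the CD95L-T4 replicates. No CD95L-T4 symbol falls inside the range of the controls in any row, and replicate 2 lies between the controls and the other CD95L-T4 arrays in rows such as Selenop, Ddit3 and Efhd1 but farther out in rows such as Arhgap39 and Hkdc1.

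Of the genes called without replicate 2, 29 of the 382 higher (7.59%) and 44 of the 408 lower (10.8%) also had replicate 2 outside the range of the controls on the same side. Over all genes, replicate 2 was above the 4 controls for 20.5% and below them for 20.9%. The largest rises among the 29 were those of Car3, a cytosolic carbonic anhydrase, Hmgn5, a nucleosome-binding protein, and Efhd1. Car3 read 5.93, 6.52, 6.50 and 6.17 in the controls and 7.16, 6.54 and 7.13 with CD95L-T4, which is 0.66 ± 0.18 with all arrays and 0.86 (adjusted p = 0.015) without replicate 2. Hmgn5 read 9.21, 9.21, 9.16 and 9.21 against 10.06, 9.27 and 9.64, which is 0.46 ± 0.13 and 0.65 (adjusted p = 0.0092). In both, replicate 2 exceeded the highest control by far less than the other CD95L-T4 arrays did. Other rises without replicate 2 were those of the ubiquitin ligase Arih1 (0.57), the cytokine Il33 (0.55), the prostaglandin reductase Ptgr2 (0.54), the transcription factor Tal1 (0.53), Fdps of the isoprenoid pathway (0.49), the augmin subunit Haus7 (0.45), Rcbtb2 (0.43) and the tubulin carboxypeptidase Vash2 (0.43). Other probe sets of Arih1 stood at 0.17 and 0.22 with all arrays, of Car3 at 0.11 and of Fdps at -0.055.

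The largest falls among the 44 were those of ccdc198, Nupr1, a small stress-induced chromatin protein, and 2310010J17Rik. Nupr1 read 9.60, 9.36, 9.46 and 9.62 in the controls and 8.76, 9.35 and 8.83 with CD95L-T4, which is -0.53 ± 0.14 with all arrays and -0.71 (adjusted p = 0.00925) without replicate 2. Rpl12, a protein of the large ribosomal subunit, read 9.07, 8.72, 8.60 and 8.44 against 8.0, 8.38 and 8.19, which is -0.52 ± 0.12 and -0.61 (adjusted p = 0.0181). In replicate 2, Nupr1 was only just below the lowest control, and the controls of Rpl12 were themselves widely spread. Ribosomal protein genes have many near-identical processed copies, so the probe set of Rpl12 may read more than 1 locus. Further falls without replicate 2 were those of the histone gene H2ac19 (-0.65, from a probe set that may cross-hybridise with other histone genes), Traf3ip2, the adaptor of the interleukin-17 receptor (-0.55), Pkib, an inhibitor of protein kinase A (-0.55), the deubiquitinase gene Josd2 (-0.50), Higd2a, an assembly factor of cytochrome c oxidase (-0.46), Mien1 (-0.46) and the cytokine Tslp (-0.46). The second probe sets of Nupr1, H2ac19 and Pkib stood at -0.46, -0.46 and -0.35 with all arrays.

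The gene lists below were chosen with earlier results of these data known, so their shares of called genes are given as a description. Several were bright, with a median signal at percentile 95.6 of all probe sets for the proteasome and 96.9 for complex I. Without the dimmest 50% of probe sets, the fit without replicate 2 called 2513, against 1386 over all probe sets. Whether a list differed from equally bright genes was not tested. The genes of the CD95 pathway itself showed no call in either fit. The receptor gene Fas read 4.82, 4.54, 4.15 and 4.39 in the controls and 4.49, 4.47 and 4.26 with CD95L-T4, well under the array medians of 6.83 to 6.88. Its difference was -0.07 ± 0.13 (SE, n = 3 and 4, limma adjusted p = 0.887), and that of the adaptor gene Fadd was -0.02 ± 0.09. Casp8 stood at -0.06 ± 0.10, the inhibitor Cflar at 0.05 ± 0.11 and the ligand gene Fasl at 0.11 ± 0.09, and the groups overlapped for all 5. Of the 12 measured genes of CD95 signalling and caspases, 0 had an unadjusted p under 0.05 in the all-array fit, against 9.49% of all genes. Without replicate 2, 0 were called, against 6.37% of all genes. A list of 12 genes is too short to tell 0 from these shares. Executioner Casp6 and initiator Casp9 stood at 0.20 ± 0.10 and 0.16 ± 0.08 with adjusted p-values of 0.535 and 0.538.

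Among 23 kinases and positive regulators of the PI3K, Akt and mTOR pathway the median was 0.04 with all arrays and 0.14 without replicate 2, with 3 members (13%) called higher and 2 (8.70%) lower in the latter, against 3.08% and 3.29% of all genes. Gsk3b, a kinase that Akt inhibits, read 7.28, 7.28, 7.09 and 7.44 in the controls and 7.77, 7.08 and 8.15 with CD95L-T4. Rraga, a Rag GTPase that brings mTOR complex 1 to the lysosome, and the kinase subunit gene Pik3ca, both named after their values were seen, read 8.94 and 7.91 in replicate 1, 7.90 and 7.46 in replicate 2 and 8.76 and 8.41 in replicate 3, against controls of 7.87 to 8.29 and 7.67 to 7.85. All 3 genes were above the controls in replicates 1 and 3, whereas replicate 2 was within the control range for Rraga and below it for Gsk3b and Pik3ca. They were called only without replicate 2, at 0.69, 0.75 and 0.44 (adjusted p = 0.0224, 0.038 and 0.0432).

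The 2 members that were lower, Lamtor1 and Lamtor2, belong to the Ragulator complex that anchors Rag GTPases. Lamtor1 read 12.47, 12.35, 12.34 and 12.31 against 11.99, 12.23 and 12, so that every CD95L-T4 array was below the controls. It stood at -0.29 ± 0.09 with all arrays and -0.37 without replicate 2 (adjusted p = 0.0352), and Lamtor2 at -0.25 ± 0.10 and -0.39 (adjusted p = 0.0162). The kinase genes Mtor, Akt1 and Src stood at 0.09 ± 0.11, 0.16 ± 0.10 and 0.13 ± 0.12 with overlapping groups, and a second probe set of Mtor stood at -0.10.

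Of 13 inhibitors of mTOR complex 1 or of cap-dependent translation, 11 were above 0 and 2 below, with a median of 0.12 (0.15 without replicate 2). Eif4ebp1, which encodes 4E-BP1, was one of those below: it read 11.98, 11.81, 11.88 and 11.82 in the controls and 11.53, 11.75 and 11.50 with CD95L-T4. The 3 CD95L-T4 arrays lay under every control, by the least in replicate 2. Its difference was -0.28 ± 0.09 (SE, n = 3 and 4, limma adjusted p = 0.474) and -0.36 without replicate 2 (adjusted p = 0.0451). Pdcd4, an inhibitor of the helicase eIF4A and named after its values were seen, was the member called higher without replicate 2, at 0.41 (adjusted p = 0.0359), with 9.47, 8.77 and 9.45 against 8.96 to 9.27. Eif4ebp1 and Pdcd4 were each 7.69% of the list, against 3.29% of all genes called lower and 3.08% higher. Ddit4 had the widest spread, from 8.0 to 9.49 in the controls and from 8.86 to 9.88 with CD95L-T4, and its 0.74 ± 0.41 had an adjusted p of 0.567.

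Genes of the translation machinery are taken here by class. All 15 measured genes of eIF2, eIF2B, eIF5, eIF6 and the eIF2 kinases were above 0, with a median of 0.11 (0.21 without replicate 2). Of these, 1 (6.67%) was higher at an unadjusted p under 0.05 (Eif2b1, 0.21 ± 0.09), against 4.1% of all genes. Without replicate 2, 1 (6.67%) was called higher (Eif2s3x, 0.29, adjusted p = 0.0285), against 3.08% of all genes. Array medians of the 15 genes were 0.185, 0.0275 and 0.17 in CD95L-T4 replicates 1, 2 and 3, and -0.045 to 0.07 in the controls. Subunits of eIF3, which bridges the ribosome and the mRNA, had a median of 0.10 with 9 of 11 above 0, which was 0.01 without replicate 1. Eif3c was above every control in the 3 arrays, with 11.22, 11.18 and 11.21 against at most 11.13, and stood at 0.14 ± 0.07 (adjusted p = 0.506). The cap-binding group had a median of 0.035, with the cap-binding protein gene Eif4e at -0.07 ± 0.07. Without replicate 2, 0 of its 12 measured genes were called, against 6.37% of all genes.

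Of 11 measured genes of elongation and termination, 2 (18.2%) were called higher without replicate 2, against 3.08% of all genes. They were the termination factor genes Etf1 and Gspt1. Etf1, which encodes the release factor eRF1, read 10.15 to 10.25 in the controls and 10.65, 10.05 and 10.53 with CD95L-T4, and its partner Gspt1 read 9.56 to 9.74 against 10.11, 9.34 and 9.89. For both, replicates 1 and 3 were above and replicate 2 below all controls. They stood at 0.21 ± 0.11 and 0.17 ± 0.13 with all arrays and at 0.39 each without replicate 2 (adjusted p = 0.0142 and 0.0185). Other probe sets ran from -0.005 to 0.38 for Etf1 and from 0.10 to 0.21 for Gspt1 with all arrays. The elongation factor gene Eef1a1 read 13.83 to 13.86 against 13.90, 13.90 and 13.94, 0.07 ± 0.06 (adjusted p = 0.726).

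Cytosolic ribosomal protein genes, whose mRNAs begin with a terminal oligopyrimidine tract and are known targets of mTOR complex 1, stayed close to 0. The median was -0.02 over 23 genes of the large subunit and -0.04 over 22 of the small subunit, against 0.0025 over all genes, and 8 and 7 of them were above 0. These were 23 of 49 and 22 of 33 listed genes, with median signals at percentiles 99.4 and 99.6 of all probe sets. Whether signals that high can show a small shift was not tested. Array medians of CD95L-T4 replicates 1 to 3 were 0.0025, -0.025 and -0.0375 for the large subunit and -0.051, 0.0062 and -0.062 for the small one. Besides Rpl12, the only member called without replicate 2 in these lists was Rps25, which read 11.81 to 11.86 in the controls and 11.33, 11.83 and 11.56 with CD95L-T4 (-0.25 ± 0.09, and -0.38 without replicate 2, adjusted p = 0.015). Rpl12 was 4.35% of its list and Rps25 4.55%, against 3.29% of all genes called lower. Of 18 aminoacyl-tRNA synthetase genes 13 were above 0, with Gars called higher (0.28, adjusted p = 0.0402) and Cars lower (-0.28, adjusted p = 0.0352) without replicate 2. Each was 5.56% of the list, against 3.08% of all genes called higher and 3.29% lower.

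Subunits of the proteasome, the protease that degrades ubiquitin-tagged proteins, had the highest median of the 43 gene lists. All 31 measured subunits were above 0 with all arrays, with a median of 0.19, and 7 of 31 (22.6%) were called higher without replicate 2, against 3.08% of all genes. The median difference from the controls was 0.505, -0.085 and 0.11 in CD95L-T4 replicates 1, 2 and 3, where the control arrays gave -0.095 to 0.10. Replicate 1 had 31 of 31 subunits above the control mean, replicate 3 had 27 and replicate 2 had 5, and the median was 0.03 without replicate 1 and 0.32 without replicate 2. Psmb7, a catalytic beta subunit, read 12.21, 12.39, 12.32 and 12.44 in the controls and 12.76, 12.41 and 12.56 with CD95L-T4 (0.24 ± 0.08, adjusted p = 0.475). Psmc3, an ATPase of the base, read 11.06 to 11.11 against 11.61, 11.21 and 11.18 (0.26 ± 0.09, adjusted p = 0.474) and was the subunit for which all 3 CD95L-T4 arrays exceeded the controls. In total RNA the median of the same subunits was -0.01.

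Other protein folding genes were measured in separate lists. All 8 subunits of the CCT chaperonin, which folds actin and tubulin, were above 0, but their median of 0.10 was 0 without replicate 1: the array medians were 0.31, 0.0063 and -0.0038 in replicates 1, 2 and 3. None of them had an unadjusted p under 0.05 with all arrays or was called without replicate 2, against 9.49% and 6.37% of all genes. Dnaja1, a co-chaperone of Hsp70, was called higher without replicate 2 (0.43, adjusted p = 0.0115), as was Hspa4 (0.27, adjusted p = 0.0379), whose other probe sets stood at -0.20 and -0.09 with all arrays. These 2 genes were 15.4% of 13 measured heat shock genes, against 3.08% of all genes called higher. Among 18 genes of ER chaperones and the unfolded protein response, 11 were below 0 with all arrays. Without replicate 2, 2 of the 18 (11.1%) were called lower, against 3.29% of all genes. Herpud1, an ER-associated degradation factor, read 9.32 to 9.51 against 8.94, 9.42 and 9.06 and was called lower without replicate 2 (-0.39, adjusted p = 0.0159), as Ddit3 was. With all arrays this probe set of Herpud1 stood at -0.25 and its second probe set at -0.05. Hyou1, an ER chaperone, was above the controls in all 3 arrays, at 9.17, 8.91 and 8.87 against 8.64 to 8.79 (0.27 ± 0.10, adjusted p = 0.474).

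Ddit3 and the serine synthesis genes Psat1 and Psph, all known targets of the transcription factor ATF4, went opposite ways without replicate 2: Psat1 and Psph were called higher at 0.48 and 0.41 (adjusted p = 0.00935 and 0.0407). Atf4 itself read 12.66 to 12.74 in the controls and 12.50, 12.75 and 12.52 with CD95L-T4, at -0.12 ± 0.07 (adjusted p = 0.607). The median of the 19 measured ATF4 genes was -0.02. Without replicate 2, 10.5% of them were called higher and 5.26% lower, against 3.08% and 3.29% of all genes.

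Nuclear-encoded subunits of the mitochondrial respiratory chain were mostly lower. Of 33 subunits of complex I, the NADH dehydrogenase, 29 were below 0 with a median of -0.115 (-0.16 without replicate 2). Of these 33, 10 (30.3%) were lower at an unadjusted p under 0.05, against 5.39% of all genes, and 9 (27.3%) were called lower without replicate 2, against 3.29%. The median difference was -0.11, -0.03 and -0.205 in CD95L-T4 replicates 1 to 3 and -0.03 to 0.0175 in the controls. Ndufa6 read 11.88, 11.76, 11.62 and 11.66 in the controls and 11.39, 11.72 and 11.27 with CD95L-T4. Ndufs5 read 11.76 to 11.82 against 11.59, 11.63 and 11.52 and was below every control in all 3 arrays, at -0.20 ± 0.08 (adjusted p = 0.483). Ndufa6 stood at -0.27 ± 0.09 and -0.40 without replicate 2 (adjusted p = 0.0133), with replicate 2 inside the control range.

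All 11 measured subunits of cytochrome c oxidase were below 0 with a median of -0.13 (-0.17 without replicate 2), and 4 of them were below every control in the 3 CD95L-T4 arrays, against 2.95% of all genes. Array medians were -0.24, -0.0675 and -0.15 against -0.015 to 0.0225 in the controls, so replicate 2 too was below each control array here. Cox8a, called lower without replicate 2, read 12.39 to 12.42 in the controls and 12.06, 12.43 and 12.07 with CD95L-T4 (-0.34, adjusted p = 0.0159). It was 9.09% of the list, against 3.29% of all genes called lower. Ndufa4 read 11.92 to 12.02 against 11.70, 11.83 and 11.75 and Cox6b1 13.48 to 13.55 against 13.34, 13.45 and 13.37, both below the controls throughout, at -0.22 ± 0.07 and -0.13 ± 0.08 (adjusted p = 0.474 and 0.579).

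Of the subunits of complexes II and III and cytochrome c, 9 of 14 were below 0 (median -0.06), with Uqcr10, a small subunit of complex III, at 12.95 to 13.10 in the controls and 12.72, 12.90 and 12.57 with CD95L-T4 (-0.29 ± 0.09, and -0.38 without replicate 2, adjusted p = 0.0191). Uqcr10 and Uqcr11 (-0.38, adjusted p = 0.0131) were called lower without replicate 2, 14.3% of the list against 3.29% of all genes. The Rieske protein gene Uqcrfs1 was called higher without replicate 2, at 0.35 (adjusted p = 0.0202), as was Atp5pb of ATP synthase, at 0.30 (adjusted p = 0.0248), so the direction was not shared by all subunits. Uqcrfs1 was 7.14% of its list and Atp5pb 6.67%, against 3.08% of all genes called higher. ATP synthase genes as a list had a median of -0.06 with 8 of 15 below 0.

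Of 69 genes for proteins of the mitochondrial ribosome, 46 were below 0 with a median of -0.08. Without replicate 2, 10 (14.5%) were called lower and 2 (2.90%) higher, against 3.29% and 3.08% of all genes. Mrpl54 read 9.83 to 10.11 in the controls and 9.50, 9.95 and 9.38 with CD95L-T4 (-0.54 without replicate 2, adjusted p = 0.0148). Mrps21 read 11.71 to 11.90 against 11.41, 11.74 and 11.29 (-0.43, adjusted p = 0.0162). Mrpl16 was one of the 2 that were higher, with 9.40 to 9.72 against 10.10, 9.55 and 9.90 (0.46, adjusted p = 0.0154). In these 3 genes replicate 2 was within the range of the controls and replicates 1 and 3 were outside it. In total RNA the medians were -0.05 for complex I, -0.05 for cytochrome c oxidase and -0.02 for the mitochondrial ribosome.

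**Figure D3:**
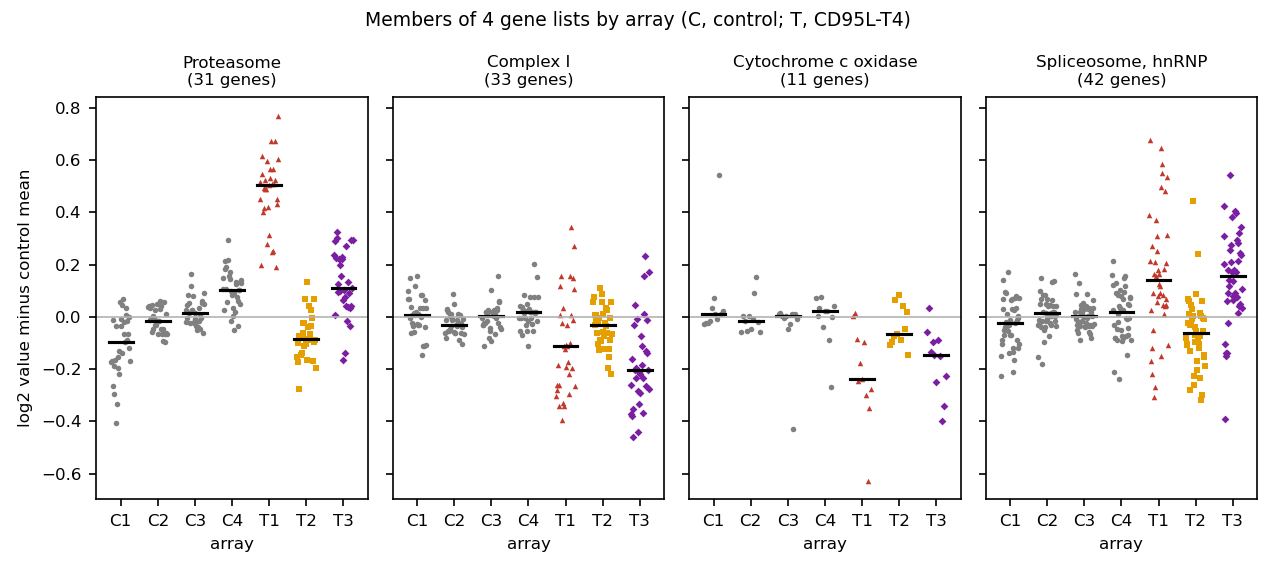
Each point is a gene of the named list in one array, as log2 value minus the mean of the 4 control polysomal arrays, and black bars are medians. C1 to C4 are control and T1 to T3 CD95L-T4 replicates. In T1 all 31 proteasome genes lie above 0, with a median of 0.505, while in T2 the median is -0.085. Complex I and cytochrome c oxidase genes lie mostly below 0 in T1 and T3, and spliceosome genes mostly above 0 in T1 and T3 and below it in T2.

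All 16 measured genes of glycolysis and glucose uptake, which include the transporter Slc2a1 and the kinase Pdk1, were above 0 with all arrays, with a median of 0.14 (0.26 without replicate 2 and 0.04 without replicate 1). Pgam1 read 10.74, 10.75, 10.86 and 10.96 in the controls and 11.41, 10.81 and 11.12 with CD95L-T4, and Aldoc read 10.58 to 10.85 against 11.32, 10.55 and 10.92. Both were above the controls in replicates 1 and 3 and inside or below their range in replicate 2. They were called without replicate 2, at 0.44 and 0.41 (adjusted p = 0.0217 and 0.0361), together with Ldha (0.33, adjusted p = 0.0496), named after its values were seen. These 3 were 18.8% of the list, against 3.08% of all genes. The control arrays themselves ran from -0.10 to 0.17 in the median of this list, so that the value of replicate 3, 0.16, was within their range.

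Of 21 genes of cholesterol biosynthesis 12 were above 0, and the array medians were 0.18, 0.11 and 0.03 in CD95L-T4 replicates 1, 2 and 3 against -0.075 to 0.0225 in the controls. In this list replicate 2 was on the same side as the others, with 18 of 21 genes above the control mean. Fdps, the farnesyl diphosphate synthase, read 11.23 to 11.28 against 12.06, 11.45 and 11.46 (0.39 ± 0.12, adjusted p = 0.473). Nsdhl was also above every control, at 10.09, 10 and 10.09 against 9.73 to 9.98 (0.20 ± 0.08, adjusted p = 0.483), and Idi1, the isomerase upstream of Fdps, was called without replicate 2 (0.33, adjusted p = 0.015). Without replicate 2, Fdps and Idi1 were called higher, 9.52% of the list against 3.08% of all genes. The median of the list was 0.075 in total RNA.

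Splicing factors and hnRNP proteins, which process nuclear transcripts, had a median of 0.06 that became 0.13 without replicate 2, with 8 of 42 (19%) called higher, against 3.08% of all genes. Array medians were 0.14, -0.06 and 0.155 against -0.02 to 0.02 in the controls, with 34, 12 and 36 of 42 genes above the control mean. Hnrnpa2b1 read 11.92 to 12.15 in the controls and 12.70, 11.97 and 12.46 with CD95L-T4. It was called without replicate 2 at 0.53 (adjusted p = 0.0092), while its other probe sets stood between -0.21 and 0.09 with all arrays. Snrpb, a core protein of the spliceosomal snRNPs, read 11.35, 11.42, 11.74 and 11.79 against 12.25, 11.47 and 12 (0.55, adjusted p = 0.0148).

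Without replicate 2, 3 of 33 mitosis genes (9.09%) and 2 of 42 replication genes (4.76%) were called higher, against 3.08% of all genes. Of the replication genes 1 (2.38%) was called lower, against 3.29% of all genes. Pcna, the sliding clamp of DNA replication, read 12.45, 12.60, 12.68 and 12.75 in the controls and 13.20, 12.55 and 13.01 with CD95L-T4. It stood at 0.30 ± 0.11 with all arrays (adjusted p = 0.483) and at 0.48 without replicate 2 (adjusted p = 0.00925). Cdk1, the mitotic kinase, and Aurkb, the kinase of the chromosomal passenger complex, were called higher at 0.38 and 0.47 (adjusted p = 0.0197 and 0.0162), and E2f1, a transcription factor of the G1/S transition, lower at -0.30 (adjusted p = 0.0423). The proliferation marker Mki67 stood at 0.14 ± 0.12, and the list medians were 0.04 for 42 replication genes and 0.06 for 33 mitosis genes.

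Linker and core histone genes were lower in 9 of 10 cases, with a median of -0.16 (-0.25 without replicate 2), and the array medians were -0.285, -0.03 and -0.20 against -0.03 to 0.06 in the controls. H1f4 read 8.16, 7.47, 8.01 and 7.68 in the controls and 7.21, 7.45 and 7.12 with CD95L-T4, just below them in replicate 2, at -0.57 ± 0.19 (adjusted p = 0.474). H2az2, a replacement variant whose mRNA is polyadenylated, read 12.47 to 12.57 against 12.24, 12.50 and 12.23 and was the member of this list called without replicate 2 (-0.29, adjusted p = 0.0201). It was 10% of the 10 genes, against 3.29% of all genes called lower. Most core histone mRNAs lack a poly-A tail, and how the RNA was primed for labelling is not given in the sources used here. Among 12 long noncoding and snoRNA host transcripts the median was -0.16 (-0.06 without replicate 1). Without replicate 2, 2 of the 12 (16.7%) were called lower, against 3.29% of all genes: Snhg1 (-0.34, adjusted p = 0.0235) and Snhg8, named after its values were seen (-0.41, adjusted p = 0.0408).

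Genes of the extracellular matrix were measured in 2 lists, 34 matrix glycoproteins and proteoglycans (median 0.07, and 0.01 without replicate 1) and 29 collagens and laminins (0.03). Tnc, the glycoprotein tenascin C, read 8.94, 9.06, 8.86 and 8.89 in the controls and 9.66, 8.90 and 9.37 with CD95L-T4. Fn1, fibronectin, read 6.73 to 6.86 against 7.28, 6.97 and 6.93, and Lamb1, a laminin chain, read 5.66 to 6.06 against 6.49, 6.18 and 6.13. Fn1 and Lamb1 were above the controls in all 3 arrays, whereas Tnc was inside their range in replicate 2. They stood at 0.37 ± 0.13, 0.26 ± 0.10 and 0.42 ± 0.13 with all arrays (adjusted p = 0.474, 0.483 and 0.473), and only Tnc was called without replicate 2 (0.58, adjusted p = 0.00925). Without replicate 2, 5.88% of the list of matrix glycoproteins and proteoglycans and 3.45% of the collagens and laminins were called higher, against 3.08% of all genes. Of 27 integrin and adhesion genes, 21 were above 0. In the all-array fit 0 of them had an unadjusted p under 0.05, against 9.49% of all genes, and without replicate 2, 0 were called, against 6.37%. Among secreted and lysosomal proteins Cst3, the protease inhibitor cystatin C, was below every control, with 11.06, 11.15 and 11.13 against 11.33 to 11.69 (-0.36 ± 0.09, adjusted p = 0.466).

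Sox2 and Nes, markers of neural stem and progenitor cells, the cell type of the label, had signals far above the array medians in both groups. Sox2 read 10.98 to 11.23 in the controls and 10.86 to 11.43 with CD95L-T4, and Nes 10.36 to 10.78 and 10.30 to 10.86. Sox2 stood at 0.13 ± 0.13 and Nes at 0.07 ± 0.15, with overlapping groups. Hes5, a Notch target that keeps progenitors undifferentiated, read 7.60, 7.45, 7.63 and 7.52 against 6.89, 7.45 and 7.11, and its difference was -0.40 ± 0.11 (adjusted p = 0.466) and -0.55 without replicate 2 (adjusted p = 0.00925). Its relative Hes1 read 10.23 to 10.34 against 10.13, 10.14 and 9.95, and Lfng, which modifies Notch receptors, 8.48 to 8.51 against 8.33, 8.31 and 8.15. Hes1 and Lfng were below all controls in the 3 arrays, at -0.20 ± 0.07 and -0.23 ± 0.07 (adjusted p = 0.476 and 0.473), and neither was called without replicate 2 (adjusted p = 0.0826 and 0.063). Sox9, a factor of glial progenitors, went the other way, at 0.37 ± 0.12 with all arrays and 0.48 without replicate 2 (adjusted p = 0.0325). The 24 stem cell genes had a median of 0.02. Without replicate 2, 4.17% of them were called higher and 8.33% lower, against 3.08% and 3.29% of all genes.

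Without replicate 2, 1 of 21 neuronal (4.76%), 1 of 14 oligodendrocyte (7.14%) and 1 of 15 astrocyte genes (6.67%) were called higher, against 3.08% of all genes. In the astrocyte list 1 gene (6.67%) was called lower, against 3.29% of all genes. Sox11, a factor of young neurons, read 7.34 to 7.65 in the controls and 8.20, 7.17 and 8.17 with CD95L-T4 (0.73, adjusted p = 0.0108), with replicate 2 below all controls. Cnp, an enzyme of oligodendrocytes, read 9.73 to 10.04 against 10.60, 9.91 and 10.25 (0.55, adjusted p = 0.0115), and S100b of glia 8.98 to 9.39 against 8.62, 9.29 and 8.86 (-0.46, adjusted p = 0.0454). With all arrays this probe set of Cnp stood at 0.38 and its other probe sets at 0.07 and 0.155. The list of 15 astrocyte genes that holds S100b also holds Aldoc, which was called higher, as given with the glycolysis genes. The neuronal markers Dcx and Tubb3 stood at -0.23 ± 0.15 and 0.13 ± 0.13, the astrocyte marker Gfap at -0.22 ± 0.16 (0.02 without replicate 2) and Olig2 at 0.17 ± 0.10, all with overlapping groups. In bulk RNA a smaller number of cells of a type and less of an RNA per cell cannot be told apart.

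Markers of cell types that could accompany neurospheres were mostly far below the array medians. Ptprc, a marker of microglia, read 2.84 to 3.14 in the controls and 3.14 to 3.46 with CD95L-T4, and the 15 microglial markers summed to 412 to 445 in linear signal in the controls and 406 to 418 with CD95L-T4. The 12 endothelial markers summed to 528 to 588 and 522 to 560, the 13 fibroblast and pericyte markers to 472 to 530 and 498 to 511, and the 6 ependymal markers to 235 to 255 and 236 to 258. Called among these without replicate 2 were the ciliogenesis factor Foxj1 (0.46, adjusted p = 0.0253) and the radial spoke gene Rsph6a (-0.43, adjusted p = 0.0227). Each was 16.7% of the 6 ependymal genes, against 3.08% of all genes called higher and 3.29% lower. The microglial, endothelial and fibroblast lists held 0 calls. Foxj1 was above all controls in replicates 1 and 3 and within their range in replicate 2.

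Immediate early, p53, NF-kB and interferon response genes gave 0 or 1 call per list without replicate 2, where 3.08% of all genes were called higher and 3.29% lower. Of 24 immediate early genes 1 was called without replicate 2, Zfp36, which promotes mRNA decay, at -0.33 (adjusted p = 0.0432). Among 18 p53 targets Zmat3 was called higher (0.35, adjusted p = 0.0255), and among 21 NF-kB genes Sod2, the mitochondrial superoxide dismutase (0.45, adjusted p = 0.0358). Cxcl10, a chemokine, read 5.78 to 5.97 in the controls and 5.37, 5.37 and 5.58 with CD95L-T4 and was below the controls throughout, at -0.41 ± 0.11 (adjusted p = 0.466). Of 20 interferon response genes 0 were called without replicate 2 and 1 in each direction had an unadjusted p under 0.05 in the all-array fit: B2m at -0.18 ± 0.07 and Ifit2 at 0.23 ± 0.09 (adjusted p = 0.487 each), both outside the control range in all 3 arrays.

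**Figure D4:**
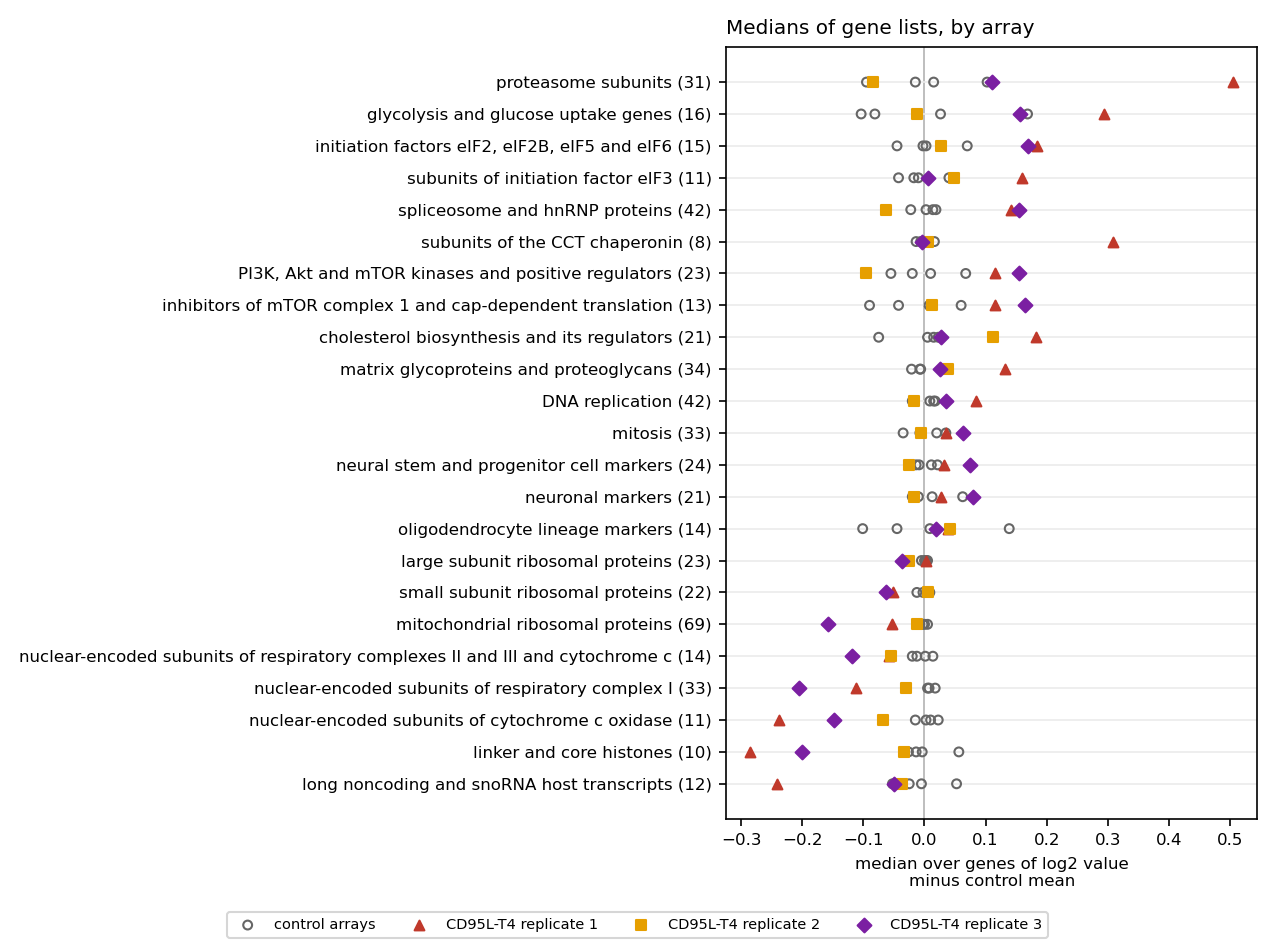
Median over the genes of a list of the log2 difference from the mean of the 4 control polysomal arrays (x axis), 1 symbol per array and the number of measured genes in parentheses. Open circles are controls. Replicates 1 and 3 lie outside the controls on the same side for lists such as the initiation factors eIF2 and eIF2B, the spliceosome and complex I, while replicate 2 lies among the controls or on their other side for lists such as the proteasome, the spliceosome and the PI3K genes, and on the side of the other CD95L-T4 arrays for cytochrome c oxidase and cholesterol biosynthesis.

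The polysomal values were last set beside those of total RNA. The 382 genes called higher and the 408 called lower without replicate 2 had median differences of 0.02 and -0.025 in total RNA, whose arrays entered the call only through the common estimate of spread. The genes were selected for their polysomal differences, so smaller differences in total RNA would arise from the selection alone. Of these genes, 1 had a difference between fractions that passed in the fit without replicate 2. limma called 0 probe sets for the difference between the polysomal and total effects with all arrays (0%, 992 or 4.38% with p under 0.05 before adjustment, lowest adjusted p 0.897) and 2 (0.00884%) without replicate 2. Of the genes named above, Rpl12 stood at -0.52 ± 0.12 in polysomal and 0.12 in total RNA, and 2310010J17Rik at -0.51 and 0.20, but the difference between fractions had an adjusted p of 0.897 for each. Pkib stood at -0.47 in polysomal and -0.35 in total RNA and Nupr1 at -0.53 and -0.35. Col5a2, Gpc4 and Tnc stood at 0.48, 0.48 and 0.37 in polysomal RNA and at -0.03, 0.03 and 0.03 in total RNA. For the difference between fractions, limma gave an adjusted p of 0.897 for each with all arrays. Without replicate 2 these were 0.135, 0.221 and 0.104, so none passed.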

How the data were processed

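The authors deposited 1 table of log2 expression values for 15 Affymetrix arrays. How it was normalised is not given in the sources used here. All value columns matched a sample title, and groups were read from the titles. Of 22690 probe sets, 64 Affymetrix controls were left out and 22626 tested. Of these, 20380 had 1 gene, 691 several and 1555 none in the platform annotation, and 12369 of the 12393 genes were found in a RefSeq gene table (GRCm38.p6), used for names only.

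The values were fitted in limma 3.58.1 (R 4.3.3) with a mean for each of the 4 groups, all 15 arrays included, moderated standard errors (5.78 prior degrees of freedom, 4.96 without CD95L-T4 polysomal replicate 2) and two-sided tests, at a threshold of 0.05 after Benjamini-Hochberg adjustment across all 22626 probe sets. "Called" means past that threshold. The steps were tested on simulated data. Precision is set by the number of arrays, as there is no read depth.

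Named genes were the 20 with the smallest p, the 15 largest rises and falls called without replicate 2 and outside the control range in all 3 CD95L-T4 arrays, up to 4 members per list with the smallest p, and a panel of 22 pathway and cell type genes (20 measured). The 43 lists held 1065 entries, 887 of them measured. Members, lists and rules were chosen with earlier results of these data known. Alternatives were other scalings, filters on dim probe sets, variance models, array weights, a replicate block, the poly-A level as a covariate, the mean of a gene's probe sets and leaving out each array. Control and CD95L-T4 polysomal samples with the same replicate number did not deviate together. Their deviations from the group means correlated at -0.13, 0.05 and 0.12 for numbers 1 to 3, so the numbers were not taken as pairs. Such correlations were not computed between polysomal and total RNA samples, so a shared culture of the 2 fractions was not tested in this way.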

Additional observations from a re-analysis of the deposited data

Results flagged for a closer look

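Only the 4 control polysomal arrays were examined for single arrays that stood apart, over named genes, list medians and array control measures. In 6 of 260 such sets, 1 array stood far from the other 3 relative to the range of the set. By chance about 1 in 20 such sets is flagged. B2m read 10.49 in replicate 3 against 10.35 to 10.36 in the others, and Hmgn5 9.16 in replicate 3 against 9.21. Gars read 9.81 in replicate 2 against 9.88 to 9.89, and Perp 3.08 in replicate 2 against 3.18 to 3.20. Rcbtb2 read 8.41 in replicate 1 against 8.67 to 8.70, and Stard4 9.30 in replicate 1 against 9.48 to 9.50.

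Without CD95L-T4 polysomal replicate 2, limma called a difference between the CD95L-T4 effects in the 2 RNA fractions for 2 probe sets. The first, which has no gene in the annotation used, differed by -1.21 ± 0.16 (SE, adjusted p = 0.0353), with 5.83 to 6.09 in the control polysomal arrays and 5.33, 5.91 and 4.89 in CD95L-T4 replicates 1, 2 and 3. Arhgap31, which encodes a GTPase-activating protein of Rac and Cdc42, differed by -0.82 ± 0.12 (adjusted p = 0.0429), with 5.94 to 6.11 in the controls and 5.35, 6.45 and 5.43 with CD95L-T4. For Arhgap31 replicate 2 was above every control and the other CD95L-T4 arrays below every control, and with all arrays both differences had an adjusted p of 0.897.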

How the results depend on the processing

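With all arrays, limma called 0 probe sets under every alternative except leaving out CD95L-T4 polysomal replicate 2, where 1386 passed, 717 of them higher. The count at an unadjusted p under 0.05, 2184, ran from 1351 to 4906 when single arrays were left out, the lowest without CD95L-T4 polysomal replicate 1 and the highest without replicate 2. It was 1337 for the polysomal arrays alone, 4163 for those without replicate 2 (0 called, lowest adjusted p 0.0964) and 1251 for averaging the probe sets of each gene. Same-numbered samples share only a number, and with a replicate block over all arrays the count was 2258, within the polysomal arrays alone 1337, with 0 called in both. Without replicate 2, the 1386 calls became 2513 (1382 higher) without the dimmest 50% of probe sets, 2159 (1181 higher) with a trended and robust variance, 158 (62 higher) with array weights and 1124 (540 higher) with a replicate block, which moved no count of calls by over 1.5 times. For the difference between fractions, calls ran from 0 to 2 when single arrays were left out. Its count at an unadjusted p under 0.05, 992, ran from 814 to 3540, highest without CD95L-T4 polysomal replicate 2, and was 490 without the dimmest 50%, 1636 with array weights and 577 for the mean of probe sets. The cause of these shifts was not tested. Of 4203 values of the 214 named genes, 0 reversed past the threshold, 88 passed it without replicate 2, and 19, of 15 genes, changed sign below it. Among the 30 genes named for the fit without replicate 2, 30 of 173 values no longer passed, 24 with array weights, 5 with a replicate block and 1 with equal medians. Of 43 list medians 16 changed sign in some alternative. The proteasome, CCT, glycolysis and eIF3 medians were 0.03, 0, 0.04 and 0.01 without CD95L-T4 replicate 1. With 3 and 4 arrays, small effects cannot be resolved.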
